A study of Mus musculus with 2 samples.

Results

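The genes described here are 8 feedback brakes of MAP kinase signalling, the phosphatase genes Dusp1, Dusp2, Dusp4, Dusp5, Dusp6 and Dusp10 and the Sprouty genes Spry1 and Spry2, out of 31053 genes in the count tables. They were taken by name and function, with no measured value in the rule, though earlier results of these data were known when they were chosen. All 8 had at least 1 UMI (unique molecular identifier, which marks a single captured mRNA molecule) in each of the 3 cell classes compared. Cells were lymphocytes of mouse ear epidermis. Dusp1, Dusp5 and Spry2 were the members with the most UMIs in dendritic epidermal T cells (DETCs, the γδ T cells of mouse epidermis), Dusp2 and Spry1 were higher in αβ T cells and innate lymphoid cells, and Dusp1, Dusp5 and Dusp4 rose most with Fos from DETC to DETC.

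MAP kinases (ERK, JNK and p38) carry the signal of antigen receptors, cytokines and cell stress from the membrane to the nucleus, where they switch on immediate early genes such as Fos. Dual-specificity phosphatases remove the phosphates that make a MAP kinase active, and Sprouty proteins hold back the pathway further upstream, at the level of Ras and Raf. Many of these brakes are themselves transcribed when the pathway is active, which gives negative feedback. DETCs carry an invariant Vγ5Vδ1 receptor, are selected in the thymus with the help of the keratinocyte protein Skint1, and survey keratinocytes for damage.

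Both libraries came from wild-type FVB/NJ female mice aged 8 weeks, and they differed in the antibody given into the ear skin 7 d before the cells were taken, an isotype control in one and a Skint1 antibody in the other. Ear epidermis was digested with trypsin, and the live fraction that was CD45+EpCAM-MHC-II- was sorted and captured with 10x 3' chemistry. Each treatment had 1 library, so treatment and library cannot be told apart and no test between them is given. The labels do not say how many mice went into a library.

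The isotype library held 27272211 UMIs and the Skint1 antibody library 32450957. Cells were the barcodes that had from 500 to 2500 genes and no more than 12% mitochondrial UMIs, 4242 of the 4896 barcodes with at least 500 genes under isotype and 5961 of 6594 in the Skint1 antibody library. Only 5 cell barcodes occurred in both libraries. A cell was called a DETC when it had at least 3 Trdc UMIs, at least 3 UMIs of Cd3d, Cd3e and Cd3g together and none of Trac, Cd4, Cd8a or Cd8b1, an αβ T cell when it had Trac but no Trdv4, and an innate lymphoid cell (ILC) when it had at least 3 UMIs of Il7r, Rora and Gata3 together, at most 2 CD3 UMIs and no Trdv4. In the isotype library these gates held 3544 DETCs, 197 αβ T cells and 82 ILCs, and in the Skint1 antibody library 4945, 213 and 139. The αβ T and ILC gates shared 9 and 14 cells. Median depth was 4027.5 and 3577 UMIs per DETC, 3766 and 3581 per αβ T cell and 4570 and 4334 per ILC.

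The labels of the gates were checked against markers. Trdv4, the δ chain gene of the DETC receptor, which the DETC gate did not ask for, was seen in 88.4% and 83.8% of DETCs. Il7r is one of the genes the ILC gate asked for, so its share there is no check. Of αβ T cells, 19.8% and 26.8% also had a Trdc UMI. In the ILC gate, summed keratinocyte markers reached 428 counts per 1000000 UMIs of the class (CPM) under isotype and 3526 CPM in the Skint1 antibody library, and summed myeloid markers 1086 and 1721 CPM, whereas DETCs stayed between 14.4 and 25.4 CPM for either list. Ratios, shares and library comparisons of the members in ILCs were also computed without such cells. In this gate Il1rl1 and Ncr1, ILC genes it did not ask for, were at 0 and 4.55 CPM and at 0 and 1.52 CPM. Il2ra, also not asked for, was at 41.8 and 60.7 CPM, against 4.43 and 2.25 CPM in DETCs. Trbc1 was at 1126 and 1069 CPM and the dermal γδ T cell gene 5830411N06Rik at 99.2 and 84.9 CPM. ILC is therefore the name of the gate, and these markers do not settle what the cells are.

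All levels below are CPM of UMIs summed over the cells of a class and library. Counts of 3' UMIs do not grow with transcript length. Ratios are log2 ratios of CPM with no pseudocount. Parentheses after a level or a ratio hold its 95% interval, exact Poisson for a level and exact conditional binomial for a ratio, and these intervals cover counting error only. Values of the isotype library come first throughout.

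The members lie on separate chromosomes of GRCm38 (GENCODE vM21 annotation). Dusp1 spans chr17:26505590-26562128 on the minus strand, Dusp2 chr2:127336159-127338376 on the plus strand, Dusp4 chr8:34807297-34819894 on the plus strand and Dusp5 chr19:53529109-53542431 on the plus strand. Dusp6 spans chr10:99263231-99267489, Dusp10 chr1:184013302-184075636 and Spry1 chr3:37639947-37644598, all on the plus strand, and Spry2 spans chr14:105891947-105896819 on the minus strand. AC122252.4 and AC122252.1 overlap the Dusp1 span on the same strand and Gm8225 and Ergic1 on the opposite strand, and AC137853.2 overlaps Dusp5, 1700056E22Rik overlaps Dusp10 and Gm42922 overlaps Spry1 on the opposite strand. How reads in the shared stretches were assigned was not tested.

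Promoter windows were read from RefSeq (GRCm38.p6) for 7 of the 8 members, since the table has no entry for Dusp4. The 250 bases before each start were searched on both strands for the cyclic AMP response element TGACGTCA, the AP-1 site TGANTCA, the EGR site GCGNGGGCG, the E-box CACGTG and the CArG box bound by serum response factor. Of 32851 windows of that length, 1.55% held the cyclic AMP response element, 1.47% a CArG box, 6.75% the AP-1 site, 4.70% the EGR site and 6.02% the E-box. The windows of Dusp1, Dusp5 and Dusp2 held matches and those of Dusp6, Dusp10, Spry1 and Spry2 held none of the 5. The window of Fos itself also held none, so a window without a match says little about a gene. The Dusp1 and Dusp5 windows are shown because these genes rose most steeply with Fos among the abundant members, Dusp2 because its class pattern is the opposite one, and Spry2 as the abundant member with a shallow slope and no match. In the Dusp1 window (chr17:26508520-26508672, minus strand) capitals mark the cyclic AMP response element at -143 to -136 and the E-box at -126 to -121, counted back from the start. In the Dusp5 window (chr19:53528945-53529108, plus strand) they mark abutting CArG boxes at -82 to -73 and -72 to -63. In the Dusp2 window (chr2:127335959-127336158, plus strand) they mark the E-box at -109 to -104 and the EGR site at -98 to -90, and the Spry2 window (chr14:105896820-105897019, minus strand) has none. The RefSeq start of Dusp1 lies inside the longer GENCODE span. Each stretch printed below begins 200 bases before the RefSeq start. It ends 48 bases before the start for Dusp1, 37 for Dusp5 and 1 for Dusp2 and Spry2.
Dusp1: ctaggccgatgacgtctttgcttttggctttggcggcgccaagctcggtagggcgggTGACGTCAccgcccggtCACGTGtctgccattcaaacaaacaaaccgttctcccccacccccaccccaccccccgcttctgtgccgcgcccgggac
Dusp5: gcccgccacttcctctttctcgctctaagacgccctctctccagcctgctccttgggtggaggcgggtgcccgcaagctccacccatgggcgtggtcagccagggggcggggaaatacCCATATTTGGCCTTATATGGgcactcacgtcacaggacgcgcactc
Dusp2: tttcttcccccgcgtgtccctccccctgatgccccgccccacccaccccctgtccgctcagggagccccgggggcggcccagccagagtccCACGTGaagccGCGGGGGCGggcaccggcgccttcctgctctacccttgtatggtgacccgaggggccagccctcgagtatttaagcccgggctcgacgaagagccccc
Spry2: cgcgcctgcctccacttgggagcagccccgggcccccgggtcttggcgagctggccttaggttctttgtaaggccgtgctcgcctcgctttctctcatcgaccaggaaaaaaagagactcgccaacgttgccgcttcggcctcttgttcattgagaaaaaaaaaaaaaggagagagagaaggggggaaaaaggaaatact
These matches are descriptions of letters in a window and no binding was measured.

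In DETCs the members fell into 3 ranges of abundance. Dusp1, the nuclear phosphatase of ERK, p38 and JNK that is also a classical immediate early gene, had 13159 UMIs under isotype and 16842 in the Skint1 antibody library, which is 898 CPM (882 to 913) and 900.3 CPM (887 to 914). Dusp5, a nuclear phosphatase that acts on ERK, stood at 207 CPM (199 to 214) and 190.2 CPM (184 to 197). Spry2, a Sprouty protein, stood at 204 CPM (197 to 212) and 195 CPM (189 to 202). In each library the intervals of Dusp5 and Spry2 overlapped, so the order of these neighbours was not resolved, whereas Dusp1 was clear of both.

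The other 5 members were scarce in DETCs. Dusp6, the cytoplasmic ERK phosphatase, reached 28.9 CPM (26.2 to 31.7) and 24.96 CPM (22.8 to 27.3), clear of the members below it. Dusp10, which acts on p38 and JNK, Dusp2, a nuclear phosphatase of activated lymphocytes, and Dusp4, another nuclear phosphatase, lay between 11.4 and 13.2 CPM in both libraries with overlapping intervals. Spry1 had 13 and 29 UMIs in all DETCs, 0.887 CPM (0.472 to 1.52) and 1.55 CPM (1.04 to 2.23). It was the lowest member in each library, with an interval clear of the next.

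Since cells differ in depth, shares of cells were compared after each cell was thinned to 2000 UMIs, which left out 134 and 202 shallower DETCs. Dusp1 had a UMI in 57.2% and 56.9% of thinned DETCs (67.0% and 65.3% before thinning), Spry2 in 30.6% and 30.5% (49.9% and 46.1%) and Dusp5 in 28.1% and 24.8% (42.0% and 36.2%). Dusp2 was seen in 1.73% and 1.497% (3.50% and 2.81%). No member was found in 24.4% and 26.5% of thinned DETCs, 1 member in 36.7% and 36.4%, 2 in 27.2% and 26.0%, 3 in 10.3% and 9.91% and 4 or more in 1.38% and 1.16%. Most DETCs thus had a UMI of some member even at this depth, with RNA from outside the cell not taken off. The UMIs of the abundant members were spread over many cells, the 10 DETCs with the most Dusp1 UMIs holding 2.04% and 1.88% of them, while for Dusp2 the 10 highest DETCs held 28.3% and 24.8%.

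**Figure D1:**
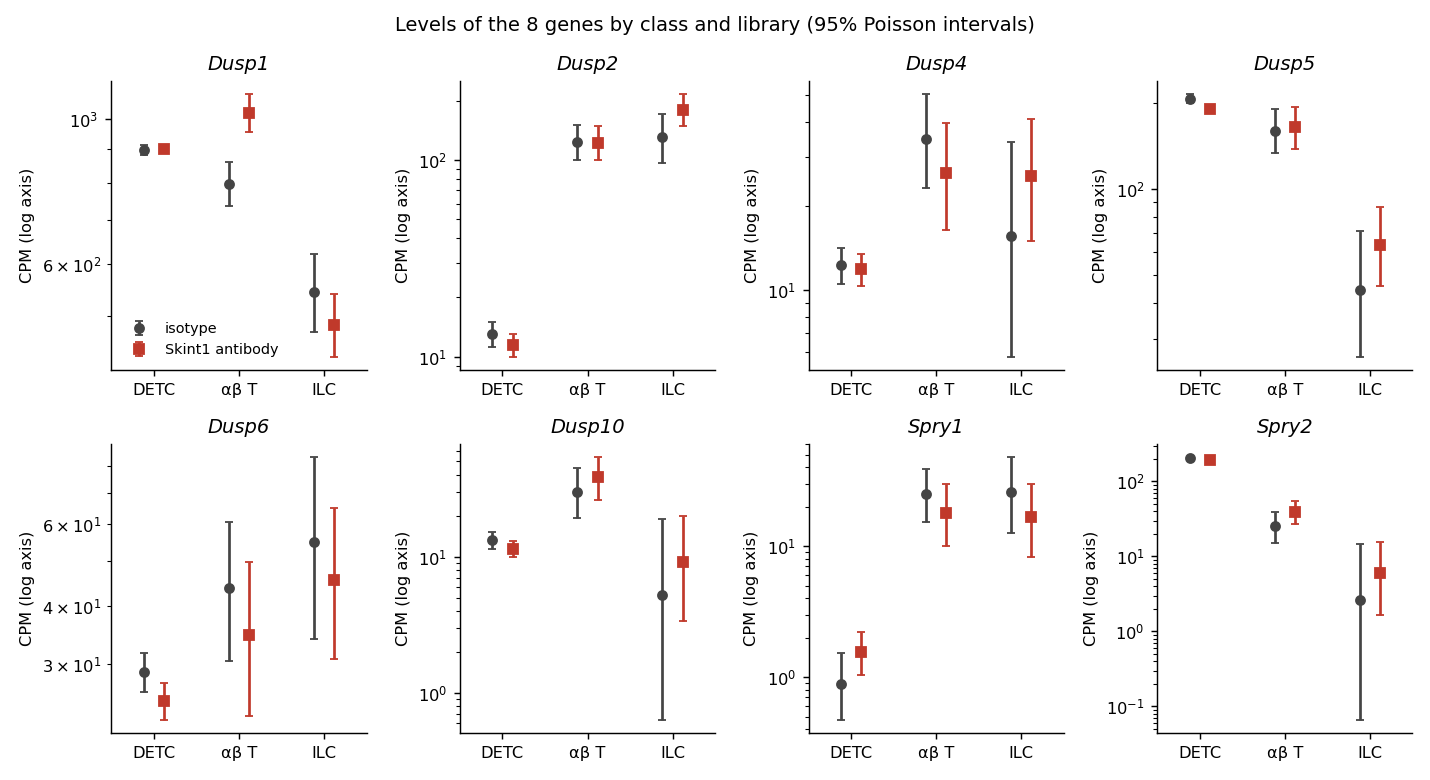
Level of each member in CPM (logarithmic axis) in DETCs, αβ T cells and ILCs, with the isotype and Skint1 antibody libraries as separate points and exact 95% Poisson intervals as bars. Dusp2 sits above 100 CPM in αβ T cells and ILCs and near 12 CPM in DETCs, Spry2 falls from about 200 CPM in DETCs to under 10 CPM in ILCs, and Dusp1 is high in every class.

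αβ T cells differed from DETCs in most members. A member was counted as different when its ratio was past 1.5-fold and the interval left out 0, and 6 of 8 were under isotype (5 higher and 1 lower in αβ T cells) and 5 of 8 in the Skint1 antibody library (4 higher and 1 lower). Among all genes with at least 10 CPM, 32.0% of 8149 and 30.7% of 8089 met the same rule in either direction, with medians of -0.12 and -0.18. Of these genes, 12.2% and 10.3% were higher and 19.8% and 20.3% lower. The 10 CPM limit was chosen after seeing that 5 members lie under 50 CPM in DETCs. With at least 50 CPM the shares in either direction were 36.5% and 34.1%, and 2 of the 4 members at that level, 1 higher and 1 lower, met the rule in each library. Dusp2 reached 50 CPM, and Spry1 10 CPM, only in αβ T cells, where they were higher, so their part in these counts is no support.

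Dusp2 and Spry1 were the members most raised in αβ T cells. Dusp2 had 99 and 102 UMIs there, 124 CPM (100 to 151) and 122 CPM (99.4 to 148), against 13.0 and 11.4 CPM in DETCs, and the log2 ratios were 3.25 (2.88 to 3.60) and 3.41 (3.06 to 3.76). Spry1 had only 20 and 15 UMIs, 24.98 CPM (15.3 to 38.6) and 17.9 CPM (10.0 to 29.6), with log2 ratios of 4.82 (3.74 to 5.95) and 3.53 (2.53 to 4.48). Few cells carried these transcripts, the 10 highest αβ T cells holding 49.5% and 47.1% of the Dusp2 UMIs and 80.0% and 86.7% of the Spry1 UMIs.

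Dusp10 and Dusp4 were higher in αβ T cells by smaller amounts. Dusp10 stood at 30.0 CPM (19.2 to 44.6) and 38.3 CPM (26.2 to 54.0), with log2 ratios of 1.19 (0.51 to 1.80) and 1.75 (1.16 to 2.29), and Dusp4 at 35.0 CPM (23.2 to 50.5) and 26.3 CPM (16.5 to 39.8), with 1.51 (0.88 to 2.09) and 1.15 (0.44 to 1.78). Dusp6 was past the limit only in the isotype library, at 0.60 (0.06 to 1.10), and in the Skint1 antibody library it was 0.47 (-0.12 to 1.02). Leaving out the 10 cells of each class with the most UMIs of the gene itself took 10 of 197 and 10 of 213 αβ T cells but only 10 of 3544 and 10 of 4945 DETCs, so a fall of these ratios was built in and no direction was read from it. Under it Dusp10 came to 0.19 (-0.89 to 1.11) and 0.80 (-0.10 to 1.58) and Dusp4 to 0.43 (-0.60 to 1.31) and -0.49 (-1.95 to 0.66), none of them past the limit. Dusp2 at 2.83 and 2.999 and Spry1 under isotype at 4.69 were past it, and Spry1 under Skint1 antibody, at 1.56 (-1.60 to 3.65), was not. The counts were then 4 and 2 of 8, with no share over all genes to set beside them.

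Spry2 was the 1 member lower in αβ T cells. It had 20 and 33 UMIs there, 24.98 CPM (15.3 to 38.6) and 39.5 CPM (27.2 to 55.4), and the log2 ratios were -3.03 (-3.74 to -2.40) and -2.31 (-2.85 to -1.81). Of these UMIs, 12 of 20 and 32 of 33 lay in αβ T cells that also had a Trdc UMI. Without the cells with Trdc, an alternative added after seeing the data, 8 and 1 Spry2 UMIs were left in 158 and 156 cells, and the log2 ratios were -4.02 (-5.23 to -3.04) and -6.87 (-12.17 to -4.39). The other members kept their direction without those cells, with Dusp2 at 3.40 and 3.72, Spry1 at 4.29 and 4.02, Dusp4 at 1.43 and 1.26 and Dusp10 at 1.26 and 1.93. Dusp6 was then past the limit in both libraries, at 0.76 (0.18 to 1.29) and 0.74 (0.10 to 1.32).

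Dusp1 and Dusp5 differed by less than 1.5-fold between the T cell classes. Dusp1 in αβ T cells was 797 CPM (736 to 861) and 1022 CPM (955 to 1093), with log2 ratios to DETCs of -0.17 (-0.29 to -0.06) under isotype and 0.18 (0.08 to 0.28) in the Skint1 antibody library, so the direction differed between libraries. Without the αβ T cells that had Trdc the ratios were -0.23 and 0.08 (-0.04 to 0.20). Dusp5 was 160 CPM (133 to 190) and 164 CPM (138 to 194), with ratios of -0.37 (-0.64 to -0.11) and -0.22 (-0.47 to 0.03), both short of 1.5-fold.

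Within αβ T cells the members were also read in cells with a Foxp3 UMI (the regulatory T cell factor, 17 and 12 cells), in other cells with Cd4 (44 and 44) and in cells with Cd8a or Cd8b1 (25 and 17). Dusp1 was 1061 and 1687 CPM in Foxp3 cells, 993 and 1176 CPM in Cd4 cells and 678 and 657 CPM in Cd8 cells. Dusp2 was 133 and 112.5 CPM, 138 and 89.6 CPM, and 172 and 171 CPM in the same order. Dusp2 was therefore above its DETC level in all 3 kinds of αβ T cell in both libraries, and Spry2 stood at 0 UMIs in the Foxp3 cells of both libraries, where 3 counts would be 44.2 and 84.4 CPM.

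ILCs differed from DETCs in 6 of 8 members under isotype (3 higher and 3 lower) and in 7 of 8 in the Skint1 antibody library (4 higher and 3 lower). Among genes with at least 10 CPM, 30.8% of 8512 and 36.6% of 8353 met the rule in either direction, with medians of -0.08 and -0.16. With at least 50 CPM the shares were 42.9% and 45.0%, and 5 of 5 and 4 of 4 members at that level met the rule. Dusp2 and, under isotype, Dusp6 reached 50 CPM only in ILCs, where they were higher, as Spry1 reached 10 CPM. Their entry was tied to the difference itself, so these counts are no support. Dusp2 had 50 and 119 UMIs in ILCs, 131 CPM (96.9 to 172) and 180.4 CPM (149 to 216), with log2 ratios of 3.33 (2.85 to 3.78) and 3.98 (3.64 to 4.31). Spry1 had 10 and 11 UMIs, 26.1 CPM (12.5 to 48.0) and 16.7 CPM (8.33 to 29.8), with ratios of 4.88 (3.53 to 6.18) and 3.43 (2.28 to 4.47). As in αβ T cells, these were the members most raised against DETCs.

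Dusp1, Dusp5 and Spry2, the abundant members of DETCs, were all lower in ILCs. Spry2 had 1 and 4 UMIs in all ILCs, 2.61 CPM (0.0661 to 14.6) and 6.07 CPM (1.65 to 15.5), with log2 ratios of -6.29 (-11.59 to -3.81) and -5.01 (-6.89 to -3.65). Dusp5 was 44.4 CPM (25.9 to 71.1) and 63.7 CPM (45.9 to 86.1), with ratios of -2.22 (-3.00 to -1.54) and -1.58 (-2.05 to -1.14). Dusp1 was 543 CPM (472 to 622) and 484 CPM (432 to 540), with ratios of -0.72 (-0.93 to -0.53) and -0.90 (-1.06 to -0.74). Dusp5 lay clear above Spry2 in ILCs of both libraries, whereas the order of this pair was not resolved in DETCs.

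Dusp6 was past the limit in ILCs of both libraries, at 0.93 (0.22 to 1.56) and 0.87 (0.28 to 1.40), and Dusp4 in the Skint1 antibody library, at 1.12 (0.31 to 1.83). In CPM, Dusp6 was 54.8 (33.9 to 83.8) and 45.5 (30.7 to 64.9) in ILCs, and Dusp4 15.7 (5.75 to 34.1) and 25.8 (15.02 to 41.3). Dusp4 under isotype was 0.35 (-1.11 to 1.502). With no upper limit on the genes of a cell, Dusp4 came to -1.57 (-3.03 to -0.42) and -0.43 (-1.13 to 0.20), so its direction in ILCs depended on that limit. Leaving out the ILCs with at least 3 keratinocyte or at least 3 myeloid UMIs, an alternative added after seeing the data, removed 14 and 31 cells, and Dusp6 was then 0.20 (-0.87 to 1.10) and 0.64 (-0.13 to 1.31). The cells left out had 134 and 61.2 CPM of Dusp6. Dusp2 at 3.16 and 3.86, Spry1 at 4.71 and 3.48, Dusp5 at -2.15 and -1.55 and Dusp1 at -0.99 and -1.38 stayed past the limit without them. Dusp4 in the Skint1 antibody library did not, at 0.86 (-0.22 to 1.77). Spry2 was then -5.94 under isotype and had 0 UMIs under Skint1 antibody, where 3 counts would be 6.48 CPM. Dusp10 had 2 and 6 UMIs in ILCs, too few to place it above or below DETCs at this depth, with ratios of -1.33 (-4.39 to 0.54) and -0.32 (-1.79 to 0.82).

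After thinning, Dusp2 had a UMI in 13.7% and 16.8% of αβ T cells and in 22.1% and 14.7% of ILCs, against 1.73% and 1.497% of DETCs. Spry2 had one in 4.74% and 6.12% of αβ T cells and in 1.30% and 0.735% of ILCs, against 30.6% and 30.5% of DETCs. Dusp5 had one in 23.2% and 26.5% of αβ T cells and in 9.09% and 10.3% of ILCs. In ILCs without the cells with keratinocyte or myeloid UMIs, Dusp2 had one in 22.2% and 15.2%, Dusp5 in 7.94% and 11.4% and Spry2 in 1 of 63 and 0 of 105 cells. The last allows up to 2.86% of cells with a UMI at this depth. These shares do not bound how many cells transcribe a gene. The shares of Dusp2 and Spry2 thus set DETCs apart on the same side as the levels did. No order of Dusp2 between αβ T cells and ILCs was read, since shares and levels gave different ones in the Skint1 antibody library.

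Free RNA gives UMIs in cells that do not transcribe a gene. In barcodes with 1 to 100 UMIs, Dusp1 was 572 and 659 CPM, Spry2 85.0 and 107 CPM, Dusp5 87.2 and 85.2 CPM, Dusp2 24.8 and 24.7 CPM and Spry1 16.7 and 17.7 CPM. If all Spry2 UMIs of ILCs were free RNA, free RNA would make up at most 17.1% and 14.5% of ILC UMIs (upper bound of the interval), which would give 4.25 and 3.57 CPM of Dusp2, 14.9 and 12.3 CPM of Dusp5 and 97.9 and 95.2 CPM of Dusp1. The measured ILC levels of these 3 genes were above those bounds. In αβ T cells the ceiling was looser, 45.4% and 51.6%, which would give 11.3 and 12.7 CPM of Dusp2, 11.3 and 9.60 CPM of Dusp4, 11.1 and 13.2 CPM of Dusp6 and 7.56 and 9.13 CPM of Spry1. In DETCs the same reckoning from Spry1 gave at most 9.10% and 12.6% free RNA, which bounds free Spry2 at 7.74 and 13.5 CPM and free Dusp2 at 2.26 and 3.11 CPM. For Dusp1 the bound in DETCs was 52.0 and 82.8 CPM, and for Dusp5 7.94 and 10.7 CPM.

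**Figure D2:**
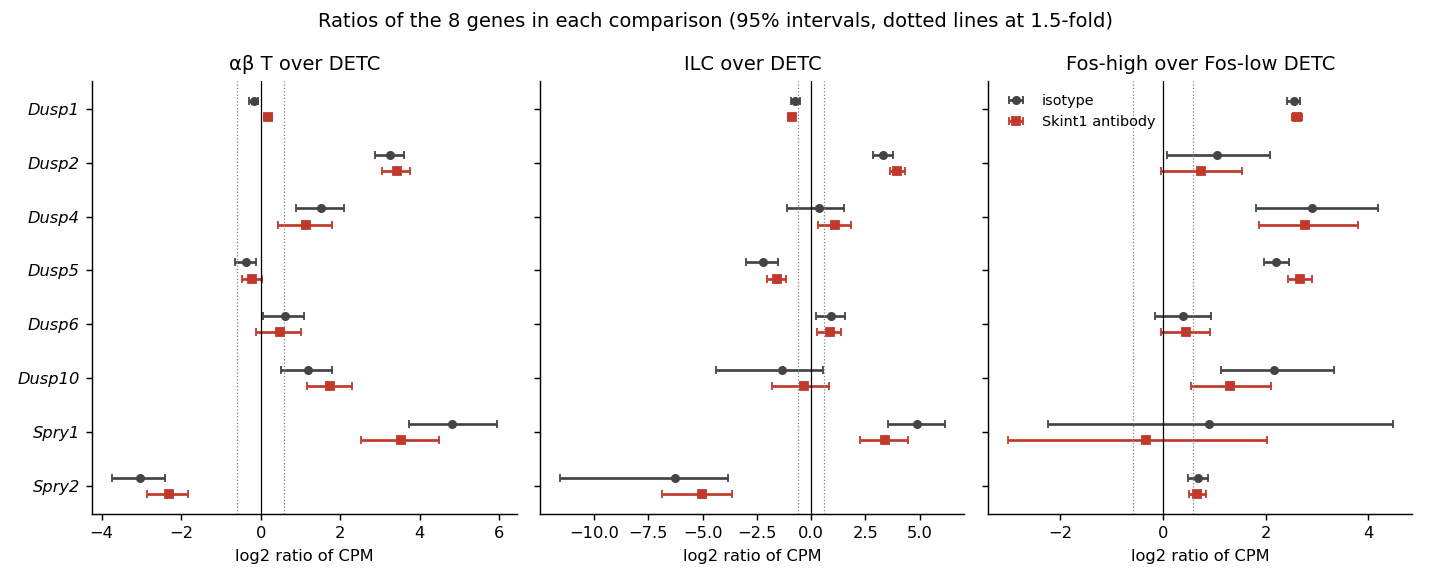
Log2 ratio of CPM for each member in αβ T cells over DETCs, ILCs over DETCs and Fos-high over Fos-low DETCs, with isotype and Skint1 antibody libraries as separate points, exact 95% conditional binomial intervals as bars and dotted lines at 1.5-fold. Dusp2 and Spry1 lie to the right and Spry2 to the left in both class panels, while in the Fos panel Dusp1, Dusp4 and Dusp5 lie between 2.21 and 2.90.

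Of 8 brakes that act on Ras or its adaptors, such as Nf1 and Rasa1, and are neither phosphatases of the family nor Sprouty genes, 7 and 6 had at least 10 CPM in αβ T cells or DETCs, of which 1 and 0 were higher and 1 and 0 lower in αβ T cells. Among Sprouty genes outside the members, Spry4 was lower in αβ T cells, at -3.31 (-4.94 to -2.08) and -2.74 (-3.95 to -1.76), and in ILCs it had 0 UMIs under isotype and a ratio of -4.40 in the Skint1 antibody library. Dusp8, a phosphatase of JNK and p38, was -2.81 and -1.35 in αβ T cells. Spry4 thus lay on the same side of DETCs as Spry2, and Spry1 on the other. Of 16 genes of the MAP kinase cascade itself, 0 and 2 were higher and 3 and 1 lower in αβ T cells, with Map2k1, an ERK kinase, at -1.17 and -1.197. Of 12 immediate early genes, 1 and 1 were higher and 5 and 3 lower in αβ T cells, and 9 and 8 were lower in ILCs. Fos itself was at 3766 and 3699 CPM in DETCs, 1327 and 2067 CPM in αβ T cells and 726 and 1125 CPM in ILCs. In ILCs without 3 or more keratinocyte or myeloid UMIs, Fos was 585 and 736 CPM, against 1244 and 2044 CPM in the ILCs left out, and 9 and 8 immediate early genes were again lower.

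The members were then read against Fos, cell by cell, within DETCs. Thinned DETCs were split by their Fos UMIs into 5 bins, and cells with 11 or more (Fos-high, 980 and 1359 cells) were compared with cells with 0 to 2 (Fos-low, 1220 and 1800 cells). Of 8 members, 6 were higher in Fos-high DETCs past 1.5-fold under isotype and 5 in the Skint1 antibody library, and none was lower. Among genes with at least 10 CPM, 8.03% of 8009 and 8.71% of 7947 were higher by the same rule, with medians of -0.20 and -0.17. With at least 50 CPM the shares were 10.5% and 11.1%, and all 3 members at that level were higher in each library. At least 10 CPM was reached by 7 of the 8 members in either group, but by only 4 in Fos-low DETCs. The rest were admitted through Fos-high DETCs, so their part in the count is no support. Cells are not replicates, so these ratios describe the 2 libraries and carry no p-value.

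Dusp1 climbed through every bin. The bins held cells with no Fos UMI, 1 to 2, 3 to 5, 6 to 10 and 11 or more, and over them its level was 166, 422, 847, 1186 and 1611 CPM in the isotype library. In the Skint1 antibody library it was 162, 421, 792, 1213 and 1722 CPM. The share of cells with a Dusp1 UMI went from 18.3% in the lowest bin to 83.3% in the highest, and from 19.3% to 84.7%. The log2 ratio of Fos-high over Fos-low DETCs was 2.54 (2.42 to 2.67) and 2.60 (2.51 to 2.70).

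Dusp5 climbed likewise from a lower base. It was 50.4, 107, 186, 259.97 and 347 CPM over the bins of the isotype library and 30.3, 83.1, 144, 248 and 349.5 CPM over those of the Skint1 antibody library. Each step was upward in both libraries, and the share of cells with a UMI went from 8.79% to 44.5% and from 5.43% to 42.7%. The ratio was 2.21 (1.97 to 2.45) and 2.67 (2.45 to 2.90). In each library this interval overlapped that of Dusp1, and the difference between the 2 ratios was not tested. No relation between the motifs and the slopes was tested.

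Dusp4 was scarce but rose by the largest ratio of the members. It was 1.44, 5.70, 11.6, 13.0 and 24.5 CPM over the isotype bins and 2.09, 4.75, 12.4, 14.6 and 22.8 CPM over the Skint1 antibody bins, upward at each step, with ratios of 2.90 (1.81 to 4.19) and 2.77 (1.87 to 3.80). Of genes with at least 10 CPM in either group, 11 of 8009 and 21 of 7947 had a larger ratio than Dusp4, against 34 and 37 for Dusp1 and 65 and 28 for Dusp5. Over all UMIs of Fos-low DETCs Dusp4 was at 2.72 and 2.38 CPM. It was ranked only through its Fos-high level, so its rank is no support. The intervals of the 3 ratios overlapped in the Skint1 antibody library, and in the isotype library that of Dusp4 overlapped both others. Dusp10 followed at 2.16 (1.12 to 3.34) and 1.31 (0.55 to 2.11). Its level was 2.16, 6.65, 9.86, 15.3 and 18.4 CPM over the isotype bins and 5.74, 7.13, 12.4, 12.8 and 15.8 CPM over the Skint1 antibody bins, and thinning each cell to fewer UMIs or other settings moved its ratio between 0.56 and 2.75 under isotype and between 0.73 and 1.73 under Skint1 antibody.

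Spry2 rose with Fos only shallowly. Its level was 161, 156, 203, 204 and 256 CPM over the bins of the isotype library and 139, 166, 180.0, 232 and 242 CPM over those of the Skint1 antibody library. A DETC with no Fos UMI therefore had about as many Spry2 as Dusp1 UMIs, and a Fos-high DETC had several times more Dusp1 than Spry2. Free RNA was not taken off. Its bounds over all DETCs were 52.0 and 82.8 CPM of Dusp1 and 7.74 and 13.5 CPM of Spry2. Its part in the levels at low Fos was not tested. The ratio of Spry2 was 0.69 (0.49 to 0.88) and 0.67 (0.51 to 0.84), and its interval lay below those of Dusp1, Dusp5 and Dusp4 in each library.

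Dusp6 and Dusp2 had the smallest slopes relative to their counting error. Dusp6 stayed between 20.2 and 33.2 CPM over the isotype bins and between 19.3 and 29.1 CPM over the others with no steady order, and it was short of the limit, at 0.39 (-0.15 to 0.93) and 0.44 (-0.03 to 0.91). Dusp2 was 5.04 and 1.04 CPM in cells with no Fos UMI and lay between 7.60 and 16.1 CPM in all higher bins. Dusp2 was past it only in the isotype library, at 1.05 (0.07 to 2.08) and 0.75 (-0.04 to 1.55), and it went to -0.88 (-3.04 to 0.96) in isotype DETCs with over 4000 UMIs. In DETCs with no Hspa1a or Hspa1b UMI, the inducible Hsp70 genes, it was past the limit in both libraries, at 2.03 (0.56 to 3.70) and 2.04 (0.29 to 4.15). Counting all UMIs of the same cells rather than the thinned ones, an alternative added after seeing the data, narrowed the intervals and gave Dusp6 at 0.58 (0.23 to 0.94) and 0.66 (0.33 to 1.00) and Dusp2 at 0.70 (0.06 to 1.35) and 0.79 (0.25 to 1.34). Spry1 had at most 4 UMIs per bin and no slope could be read.

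Across single DETCs, Spearman's rho with Fos was 0.53 and 0.56 for Dusp1 (3410 and 4743 cells, all thinned to the same depth) and 0.31 and 0.35 for Dusp5. For Spry2 rho was 0.10 and 0.11, weak beside that of Dusp5, which was seen in a like share of cells. For the other 5 members rho was at most 0.10 in sparse counts and is no finding.

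**Figure D3:**
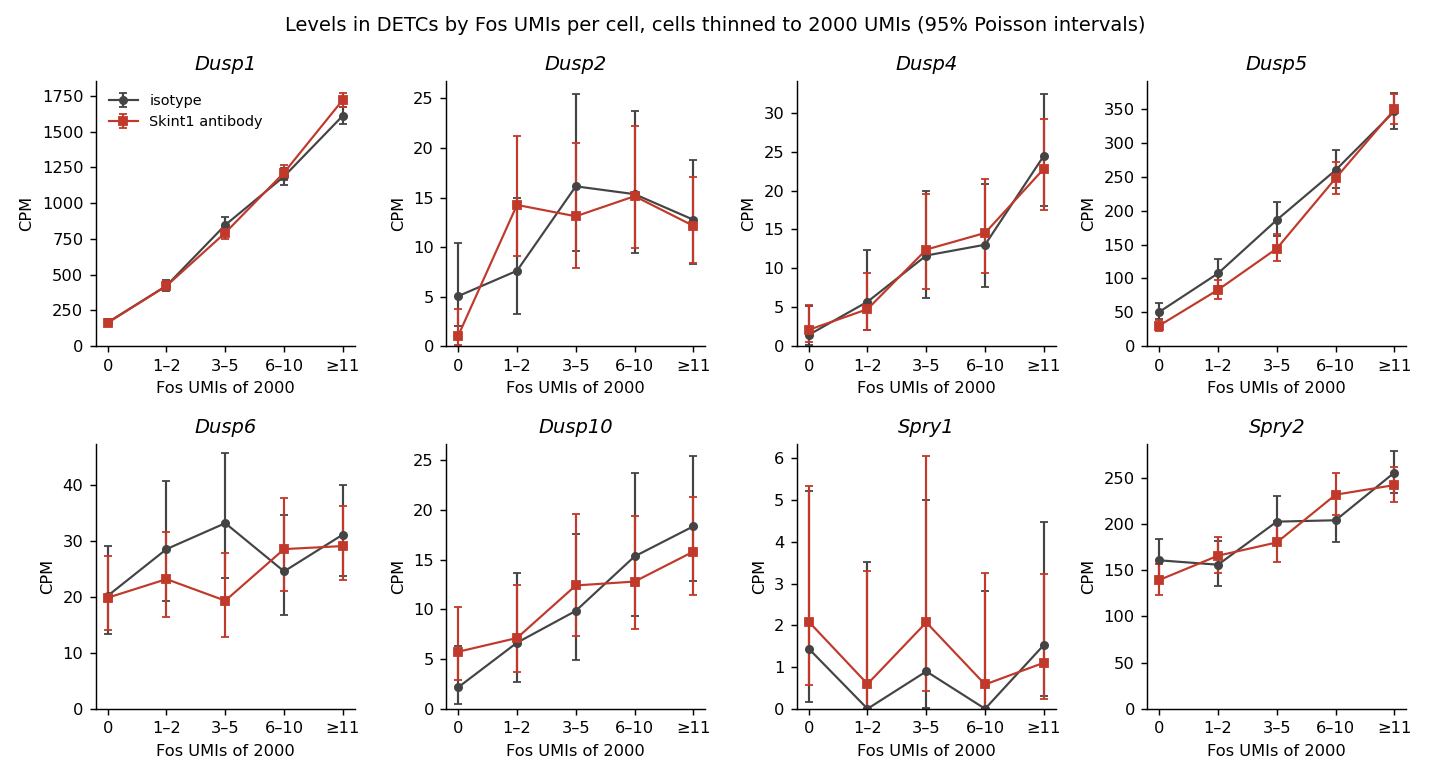
Level of each member in CPM by the number of Fos UMIs in thinned DETCs, with the isotype and Skint1 antibody libraries as separate lines and exact 95% Poisson intervals as bars. Dusp1 and Dusp5 rise at each step in both libraries, from 166 to 1611 CPM and from 50.4 to 347 CPM in the isotype library, while Spry2 goes from 161 to 256 CPM.

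Over the Fos bins, median depth before thinning was 3996.5 to 4182 and 3490 to 3721 UMIs, and summed keratinocyte markers were 12.5 to 18.7 and 19.8 to 41.6 CPM. Summed heat shock genes went from 4150 CPM in the lowest bin to 10397 CPM in the highest, and from 3447 to 8148 CPM. Of 8 heat shock and stress genes, 7 and 5 were higher in Fos-high DETCs, with Atf3, a stress-induced transcription factor, at 2.46 and 2.85 and Dnajb1, a cochaperone, at 2.19 and 2.39. Within DETCs that had no Hspa1a or Hspa1b UMI, Dusp1 was 3.23 (2.98 to 3.50) and 2.99 (2.79 to 3.19), Dusp5 2.49 (2.03 to 2.98) and 3.04 (2.62 to 3.49) and Spry2 0.75 (0.36 to 1.13) and 0.42 (0.12 to 0.72). Such cells may still hold other stress transcripts, such as Atf3 and Dnajb1, and the part of stress genes in the slopes was not tested. Some calls ended there, since Dusp10 was 1.13 (-1.08 to 3.46) and 0.73 (-0.72 to 2.21) and Spry2 under Skint1 antibody fell short of 1.5-fold.

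Immediate early genes rose with Fos, as did 6 and 5 of the 8 members, whereas most kinase genes did not pass the limit. Of 12 immediate early genes, 12 were higher in Fos-high DETCs in both libraries, with medians of 1.73 and 2.17. Other phosphatase genes of the family were counted with at least 10 CPM in Fos-high or Fos-low DETCs, and 3 of 3 and 2 of 2 were higher. Only 1 of the 4 on this list had 10 CPM in Fos-low DETCs of either library. Most were thus admitted through the group where they were higher, and the count is no support. Dusp8 was 2.64 (1.69 to 3.72) and 1.97 (1.25 to 2.74), and Dusp16, which acts on JNK, 1.34 and 2.24. Dusp7, an ERK phosphatase, was 0.95 under isotype and, with under 10 CPM, -0.36 (-1.23 to 0.48) under Skint1 antibody. Of 16 genes of the MAP kinase cascade, 1 and 2 were higher and 2 and 2 lower, with medians of -0.22 and -0.28. Nras and Hras, the Ras proteins upstream of Raf, were -0.65 and -0.76, and -1.08 and -1.21. Spry4 was 0.21 (-0.14 to 0.56) and 0.61 (0.33 to 0.90). These lists give counts and medians only and no set test was made.

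Members also went together within DETCs. Thinned DETCs with a Dusp1 UMI had more Dusp5 than those without, by 1.45 (1.26 to 1.64) and 2.01 (1.82 to 2.20) on the log2 scale, and more Dusp4, by 2.35 (1.43 to 3.41) and 2.16 (1.41 to 2.99). Within Fos-low DETCs the Dusp5 difference was 1.64 (1.203 to 2.07) and 1.74 (1.32 to 2.16), and within Fos-high DETCs 0.26 (-0.06 to 0.58) and 0.81 (0.49 to 1.14). Dusp1 and Dusp5 thus went together also among cells with little Fos. Spry2 differed less, by 0.46 (0.30 to 0.63) and 0.46 (0.32 to 0.60), and Dusp6 by -0.11 (-0.54 to 0.32) and 0.43 (0.03 to 0.83).

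Dusp1 and Dusp5 were also higher in DETCs with other immediate early transcripts. In cells with a UMI of Egr1, an immediate early transcription factor, Dusp1 was higher by 0.78 (0.71 to 0.86) and 1.35 (1.29 to 1.41), Dusp5 by 0.87 and 1.41 and Spry2 by 0.35 and 0.41. By Nr4a1, an immediate early gene of antigen receptor signalling, Dusp1 was higher by 0.91 and 0.92 and Dusp5 by 0.90 and 1.26. By Tnfrsf9, a costimulatory receptor gene of activated T cells, Dusp1 differed by 0.11 and 0.28 and Dusp5 by 0.18 and 0.04. The ratios by this receptor were thus smaller than those by Egr1 and Nr4a1.

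For each member, the genes most like it were those with the largest ratio between thinned DETCs with and without a UMI of the member. They were ranked by the lower of the 2 libraries over 2762 genes. Since they were picked by these same ratios, an interval that leaves out 0 is no support for them. For Dusp1 they were Areg, the epidermal growth factor family ligand amphiregulin, at 1.75 (1.63 to 1.87) and 2.32 (2.21 to 2.44), Vps37b at 1.74 and 1.94 and Hist1h2bc at 1.74 and 1.86. For Dusp5 they were Maff, a small Maf transcription factor, at 1.26 and 1.22, Vps37b at 1.18 and 1.16, and Vegfa at 1.12 and 1.25. For Dusp4 they were Plk3, Atf3 and Mt1, over 82 and 112 cells with a Dusp4 UMI. For Spry2 they included Nabp1 at 0.40 and 0.59 and Tnfaip3, an inhibitor of NF-κB, at 0.39 and 0.44. The ratios for Spry2 were small beside those for Dusp1. For Dusp10 (73 and 100 cells) they were Dock2 at 0.97 and 0.94, Rnf157 at 0.97 and 0.89 and Vps37b at 1.01 and 0.86, and for Dusp2 (59 and 71 cells) Cdc42ep3 at 0.90 and 0.89, Gadd45g, a growth arrest and DNA damage gene, at 0.72 and 0.71 and Nfkbid at 0.89 (0.10 to 1.58) and 0.70 (-0.11 to 1.42), of which the second interval held 0. For Dusp6 they were Naxd, Dapp1 and Gata3, between 0.44 and 0.73, and 5 of these 6 intervals held 0. Vps37b thus stood in the lists of Dusp1, Dusp5 and Dusp10. Spry1 had 6 and 11 cells, too few to rank genes by.

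In αβ T cells, the Fos-high over Fos-low ratio of Dusp1 was 1.74 (1.19 to 2.25) and 1.00 (0.57 to 1.42), from 10 and 23 Fos-high and 130 and 113 Fos-low cells. Dusp5 was 1.12 (-0.61 to 2.50) and 1.71 (0.76 to 2.63), and Spry2, from 2 against 5 and 4 against 2 UMIs, 2.38 (-1.01 to 4.99) and 3.30 (0.49 to 6.76). Fos was 4221 and 4323 CPM in αβ T cells with 3 or more Trdc UMIs and 1000.4 and 1393 CPM in those without Trdc, and the part of the cells with Trdc in these ratios was not tested. Of ILCs, 0 and 4 thinned cells were Fos-high, so no slope was read.

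The comparison of the libraries asks whether blocking Skint1 went with a change in these brakes. In DETCs, 0 of 8 members were past 1.2-fold with an interval that left out 0, where 7.04% of 7690 genes with at least 10 CPM and 3.80% of 2920 with at least 50 CPM were, and the median of all genes was -0.03. Of the 8 members, 7 had at least 10 CPM and 3 at least 50 CPM. Dusp1 differed by 0.00 (-0.03 to 0.04) and Spry2 by -0.06 (-0.13 to 0.01). Both intervals lie inside 1.2-fold in either direction. Dusp5 was -0.12 (-0.19 to -0.05) and Dusp6 -0.21 (-0.40 to -0.02), Dusp10 -0.21 (-0.50 to 0.08), Dusp2 -0.19 (-0.48 to 0.10), Dusp4 -0.05 (-0.34 to 0.24) and Spry1 0.81 (-0.18 to 1.87), the last from 13 and 29 UMIs. Dusp5 was 0.08 (-0.06 to 0.22) in the DETCs without Hspa1a and Hspa1b UMIs. Beside this, 5 of 8 heat shock genes were lower in the Skint1 antibody library, with a median of -0.43, and their part in the Dusp5 value was not tested.

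The libraries were then compared at low and at high Fos. For Dusp5, over all UMIs of Fos-low DETCs, the level was 74.2 CPM under isotype and 53.7 CPM under Skint1 antibody, with a log2 ratio of -0.46 (-0.67 to -0.26), and over Fos-high DETCs 356 and 364 CPM, a ratio of 0.03 (-0.07 to 0.13). On thinned UMIs the Fos-low ratio was -0.45 (-0.74 to -0.15), which made Dusp5 the 1 member of 8 past 1.2-fold there, beside 7.86% of genes with at least 10 CPM and 8.90% with at least 50 CPM. Of the members, 4 had at least 10 CPM and 3 at least 50 CPM in these cells, so on the same footing the count is 1 of 4 and 1 of 3. So few members cannot be set against a share, and the values come from 1 library against 1 library. The difference between the ratios at low and high Fos was not tested. In Fos-low DETCs without Hspa1a and Hspa1b UMIs the ratio was -0.48 with an interval that held 0 (-1.05 to 0.11). Dusp1 was -0.04 (-0.14 to 0.06) in Fos-low and 0.10 (0.05 to 0.14) in Fos-high DETCs on all UMIs, and Spry2 -0.01 (-0.14 to 0.12) and -0.15 (-0.28 to -0.03), all short of 1.2-fold.

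In αβ T cells, 1 of 8 members was past 1.2-fold, beside 7.70% of 7671 genes with at least 10 CPM and 10.8% with at least 50 CPM. This was Dusp1, at 0.36 (0.21 to 0.51). Fos moved the same way, at 0.64, and so did the share of αβ T cells with Trdc, from 19.8% to 26.8%. In the cells without Trdc, an alternative added after seeing the data, Dusp1 was 766 and 953.5 CPM, a ratio of 0.32 (0.14 to 0.49), and Spry2, with 8 and 1 UMIs, was -2.91 (-8.39 to -0.01), so 2 of 8 were past 1.2-fold, beside 7.22% of genes with at least 10 CPM and 10.3% with at least 50 CPM. In ILCs no member was past 1.2-fold, beside 9.66% of 8103 genes with at least 10 CPM and 15.5% with at least 50 CPM, with Dusp2 at 0.47 (-0.02 to 0.97) and Dusp1 at -0.17 (-0.42 to 0.09). Only 6 members had at least 10 CPM there and 4 at least 50 CPM, so the count of 0 rests on these. This count depended on the cells with keratinocyte or myeloid UMIs. Without them, also added after seeing the data, Dusp1 was 452 CPM under isotype and 345 CPM under Skint1 antibody, a ratio of -0.39 (-0.73 to -0.05), and was the 1 member past 1.2-fold, beside 5.86% of genes with at least 10 CPM and 9.39% with at least 50 CPM. Dusp2 was then 0.52 (-0.08 to 1.14) and Fos 0.33 (0.07 to 0.60), against 0.63 in all ILCs.

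**Figure D4:**
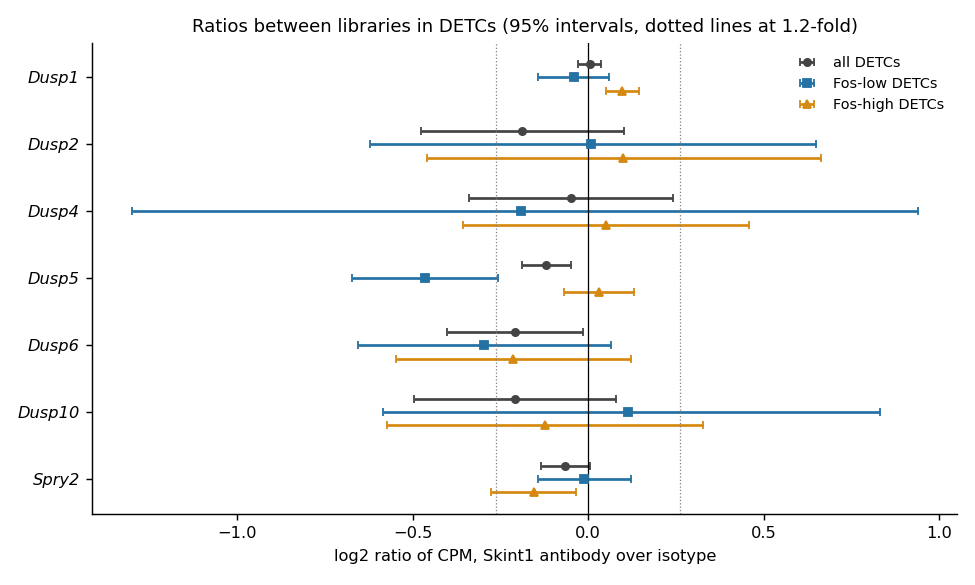
Log2 ratio between the libraries, Skint1 antibody over isotype, for 7 members (Spry1, with 13 and 29 UMIs, is left out) in all DETCs, Fos-low DETCs and Fos-high DETCs, on all UMIs, with exact 95% conditional binomial intervals as bars and dotted lines at 1.2-fold. Dusp5 in Fos-low DETCs lies at -0.46 and in Fos-high DETCs at 0.03, and Dusp1 lies between -0.04 and 0.10 in all 3 groups.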

How the data were processed

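CellRanger 3.0.2 with the mm10 index 3.0.0 was used by the authors to turn 10x 3' reads into UMI counts. What they deposited is raw, with every barcode and gene kept and no normalization. The members, gene lists and limits were chosen with earlier results of these data known. UMIs were summed per class and library (Python 3.11.15), with pandas 2.3.3, scipy 1.17.1 and numpy 2.4.6. Cells of at least 2000 UMIs were thinned once to 2000 at random for shares of cells and for the Fos classes. Ratios were counted past 1.5-fold between classes and 1.2-fold between libraries. With 1 library per treatment and cells that are not replicates, there is no p-value.

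Named genes are the members, Fos, pathway lists and the 3 genes most like each member. One result under this rule is left out of the text. Scrublet (scanpy 1.11.5) gave doublet scores, but its own threshold marked 6 of 4709 and 6 of 6425 barcodes, so it had not worked. Doublets stayed in except under the alternative that left out the 177 and 330 highest scores. Ratios were also computed on simulated Poisson counts at the depth of the DETC comparison between libraries. In these, 100% of 200 genes changed 2-fold were found among 2871 with at least 50 CPM at the 1.2-fold limit. Smaller changes were not simulated. Of the intervals, 94.9% held the true value, which the Poisson draw fixes in advance. Genes under 50 CPM, as most members are in DETCs, and UMIs spread unevenly over cells were not simulated. Alternatives changed the cell limits, gates, depth of thinning, scaling and weights. No protein sequence was used here.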

Additional observations from a re-analysis of the deposited data

Results flagged for a closer look

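Dusp1 in αβ T cells over DETCs had opposite directions in the 2 libraries, with a log2 ratio of -0.17 (-0.29 to -0.06) under isotype and 0.18 (0.08 to 0.28) under Skint1 antibody. The difference between these ratios was not tested. Over the alternatives the isotype ratio lay between -0.43 and -0.04 and the Skint1 antibody ratio between -0.02, without the 10 cells of each class with the most Dusp1 UMIs (-0.13 to 0.09), which by its construction lowers the ratio, and 0.47. In αβ T cells without Trdc the ratios were -0.23 and 0.08. Fos in αβ T cells was 1327 CPM under isotype and 2067 CPM in the Skint1 antibody library, and the part of Fos and of the cells with Trdc in the difference was not tested.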

How the results depend on the processing

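Over 25 settings, of which 19 were planned and 6 were added after seeing the data, 102 of 117 counts of members past the limit stayed within 1.5 times the reported one or at the same 0. Of values for single members, 984 moved by less than their counting interval, 100 moved by more and 7 that had been past the limit turned direction. A further 68 values that had not been past the limit, counted in the 984 and 100, also changed sign. Of these, 2 came past it, Dusp4 in isotype ILCs without an upper limit on genes (-1.57) and Spry2 between libraries in αβ T cells without Trdc (-2.91). The count for ILCs in the Skint1 antibody library went from 7 to 4 with at most 5% mitochondrial UMIs, that for αβ T cells in the Skint1 antibody library from 5 to 2 without the 10 highest cells of each group, and that for Fos in the isotype library from 6 to 3 with thinning to 1000 UMIs. Between libraries the DETC count went from 0 to 1 in 4 settings, through Spry1 without the 10 highest cells (2.06), as a mean over cells (0.61) and with equal weight to each Fos bin (0.73), and through Dusp5 in Fos-low DETCs only. In αβ T cells it went from 1 to 2 without the 10 highest cells and without the cells with Trdc. In ILCs it went from 0 to 3 without an upper limit on genes (Dusp1 -0.39, Dusp2 0.81, Dusp6 -0.60) and to 1 with at most 20% mitochondrial UMIs, with totals without ribosomal and mitochondrial genes and without cells with keratinocyte or myeloid UMIs. As a mean over cells, which has no interval and is counted by fold alone, the counts for αβ T cells and ILCs were 4 and 6. No share of all genes under that looser rule is given here. None of the counts in this paragraph is read as above or below background. The values past the limit that turned were Dusp4 in ILCs of the Skint1 antibody library, at -0.43 without an upper limit on genes and -1.69 without the 10 highest cells, and, also without those cells, an alternative that takes cells by the gene's own UMIs and a larger share of the smaller class, so that a fall was built in, Dusp6 in αβ T cells of the isotype library (-0.45), Dusp4 in αβ T cells of the Skint1 antibody library (-0.49) and Dusp6 in ILCs (-1.55 and -0.11). Dusp2 over Fos turned to -0.88 in isotype DETCs with over 4000 UMIs. None of these 7 was past the limit in the new direction. The causes were not tested.

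Spry1 in all classes, and Dusp4, Dusp10 and Spry2 in ILCs, rest on at most 29 UMIs, and the depth does not resolve their size. No paired analysis was possible because each treatment had 1 library.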

Other observations

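Immediate early genes, which rose with Fos together with Dusp1 and Dusp5 from cell to cell, did not move as one between the libraries. In DETCs, with Skint1 antibody over isotype, Egr1 was 0.39 (0.33 to 0.44), Egr2 0.43 (0.19 to 0.67) and Ier2 0.29 (0.25 to 0.33), and Myc was -0.30 (-0.58 to -0.01), so that 3 of 12 were higher and 1 lower past 1.2-fold, while Dusp1 was 0.00 (-0.03 to 0.04). Of 8 heat shock and stress genes, 5 were lower in DETCs past 1.2-fold and 0 higher, with Hsph1 at -0.83 (-0.93 to -0.72), Hspa1a at -0.57 (-0.59 to -0.54) and Atf3 at -0.55 (-0.63 to -0.48). In ILCs 4 of the 8 were higher and 0 lower, beside summed keratinocyte markers of 428 and 3526 CPM and myeloid markers of 1086 and 1721 CPM. In ILCs without 3 or more UMIs of either list, 1 of the 8 was higher and 0 lower, and Atf3, at 1.64 (1.05 to 2.27) in all ILCs, was -0.77 (-2.25 to 0.68). Of 12 immediate early genes, 5 were higher in all ILCs and 1 without those cells. In αβ T cells 1 of the 8 heat shock and stress genes was higher and 0 lower, and in those without Trdc 1 was higher and 3 lower. In DETCs, of other phosphatases of the family with at least 10 CPM, Dusp7 was 0.02 (-0.30 to 0.34), Dusp8 -0.20 (-0.45 to 0.05) and Dusp16 -0.08 (-0.30 to 0.13). Spry4 was 0.04 (-0.08 to 0.17). These values compare 1 library with 1 library and were not tested.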
